A study of Mus musculus with 6 samples.

Results

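The 10 genes described here are fibroblast growth factor (FGF) ligands and receptors of the mouse: the ligand genes Fgf2, Fgf3, Fgf7, Fgf9, Fgf10 and Fgf18 and the receptor genes Fgfr1, Fgfr2, Fgfr3 and Fgfr4. They were chosen by name, and all 10 are among the 22287 genes of the deposited count table. RNA was isolated from the root-forming apical end of first mandibular molars of C57BL/6 pups at postnatal day 7.5. Both groups were homozygous for a floxed Arid1a allele (Arid1a fl/fl) and, per the labels' protocols, were injected with tamoxifen at postnatal day 3.5 (1.5 mg per 10 g of body weight). The control group carried no other allele named in the labels (3 libraries, replicates 2, 3 and 5). The mutant group carried Gli1-CreER in addition, a recombinase activated by tamoxifen in cells that use the Gli1 promoter (3 libraries, replicates 3, 4 and 5). CreER itself was present in the mutants only, so its effect and that of Arid1a loss cannot be told apart. The labels do not say whether a library is 1 animal or pooled teeth, and p-values then cover only the spread among these libraries, which may be technical.

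FGFs are secreted proteins that bind receptor tyrosine kinases together with heparan sulfate and signal largely through Ras and ERK. Alternative splicing gives FGFR1, FGFR2 and FGFR3 an epithelial b form and a mesenchymal c form with different ligand preferences. In teeth, Fgf3 and Fgf10 are known from the dental papilla mesenchyme, Fgf9 from the dental epithelium, and Fgf10 and Fgf7 are ligands of the b form of FGFR2. The counts are per gene and do not separate the b and c forms.

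The libraries held 20453247 to 24255352 estimated counts, so 1 CPM (counts relative to the scaled library size) stood for 18.4 to 25.9 counts. Arid1a, the targeted gene, was lower in every mutant library, with a control mean of 205 ± 3.96 CPM and a mutant mean of 128 ± 7.36 (SD, n = 3; the log2 difference was -0.68 with an adjusted p of 0.0129 by edgeR's quasi-likelihood test). Leaving out control replicate 2 (adjusted p = 0.0506) or control replicate 3 (0.0529) ended that call. Of 12 dental epithelium markers, 2 fell (Amelx and Sp6) and 0 rose, and their summed level was 179694 to 278853 CPM in controls and 68744 to 114046 in mutants. That sum is made up mostly of the enamel genes Amelx, Ambn and Enam. Over the 12 markers, 10 fold changes were negative (median -0.51), and 8 had an unadjusted p under 0.05, all with lower mutant means. The keratin genes Krt15 and Krt17 were among the 8. The more abundant Krt5 (log2 fold change -0.23) and Krt14 (0.03) were not, and their groups overlapped. The 2 positive fold changes were those of Krt14 and Epcam (0.31). Of 9 dental mesenchyme markers, 1 rose (Prrx1) and 0 fell, with sums of 2085 to 2263 CPM in controls and 2224 to 2404 in mutants. Over the 9, 8 fold changes were positive (median 0.32), and 5 had an unadjusted p under 0.05, all with higher mutant means. For 6 of them every mutant was above every control. The 1 negative was Vim, the largest part of that sum (control mean 1475 CPM, mutant mean 1447). Of 6 macrophage markers, 1 rose (Cd68) and 0 fell, and each had every mutant above every control, with sums of 200 to 242 CPM in controls and 272 to 351 in mutants. Of 6 tested erythroid markers, 0 passed and 6 had positive fold changes (median 1.07), with sums of 1423 to 1948 CPM over 7 genes in controls and 2366 to 5510 in mutants. Of all genes tested, 1.86% were called by edgeR, 15.0% had an unadjusted p under 0.05 and 52.0% had a positive fold change. Every mutant was above every control for 10.6% of all genes and below for 10.8%. The part of the marker shifts in the values below was not tested. Markers of both kinds were present in every library, as the label of molar tissue requires. In bulk tissue, fewer cells of a type and less RNA per cell cannot be told apart.

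None of the tested FGF ligands and receptors passed. Of the 9 that were tested, 0 rose and 0 fell at an adjusted p under 0.05 (edgeR quasi-likelihood test), where 1.86% of all 17305 genes tested did. At an unadjusted p under 0.05 there were 2, Fgf2 and Fgf3, against 15.0% of all genes. Fgf18 was left out of the test because its counts were too low. Fold changes were positive for 5 of the 9, against 52.0% of all genes. The 9 had a median log2 fold change of 0.04, and all genes tested had a median of 0.01. Also 0 were called by DESeq2 (which gave an adjusted p for 8), limma-voom or edgeR's likelihood ratio test. The libraries of the groups did not overlap for 2 of the 9, again Fgf2 (mutants higher) and Fgf3 (mutants lower), against 21.3% of all genes.

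**Figure D1:**
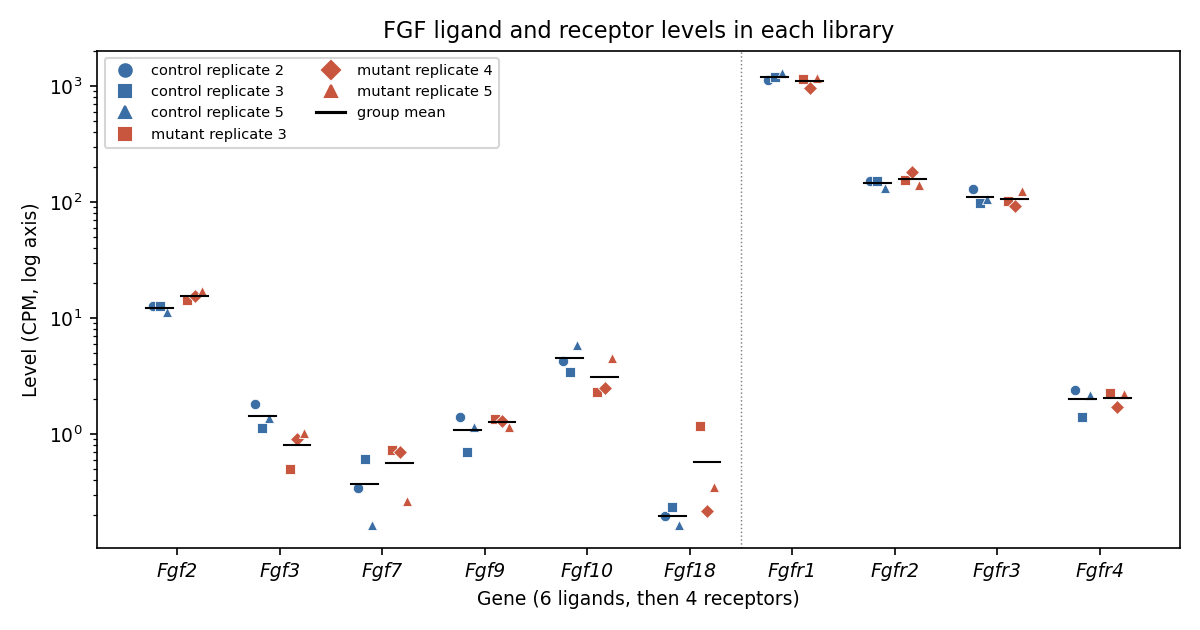
Level of each gene in CPM on a log axis, with 1 point per library (blue for controls, red for mutants, the shape giving the replicate number) and a line at the group mean. Fgfr1 lies between 952 and 1284 CPM, and the mutant replicate 3 library stands above the other 5 for Fgf18.

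Fgf3 and Fgf10 were the ligands with lower means in mutants, and both belong to the papilla mesenchyme by their known expression. The bases just before their RefSeq start sites are shown so that the 2 can be compared. Only bases that GENCODE M21 does not annotate as UTR of the gene are given, 5′ to 3′ on the plus strand of GRCm38.p6, the assembly of mm10. They are chr7:144838362-144838594 for Fgf3 (233 bases) and chr13:118714449-118714698 for Fgf10 (250 bases). Both stretches lie inside the genes as annotated by GENCODE M21, which start at 144838083 for Fgf3 and at 118669791 for Fgf10. Capitals mark a match to a searched motif.
Fgf3: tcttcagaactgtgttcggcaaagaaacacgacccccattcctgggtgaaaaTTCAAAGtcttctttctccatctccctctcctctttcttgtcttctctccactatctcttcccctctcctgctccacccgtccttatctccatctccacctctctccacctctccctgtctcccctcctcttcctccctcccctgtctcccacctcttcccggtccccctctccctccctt
Fgf10: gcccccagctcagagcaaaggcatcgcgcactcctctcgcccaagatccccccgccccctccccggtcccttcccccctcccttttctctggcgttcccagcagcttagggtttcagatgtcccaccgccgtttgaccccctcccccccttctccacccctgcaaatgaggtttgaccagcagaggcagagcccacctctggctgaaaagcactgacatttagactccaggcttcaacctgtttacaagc

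RefSeq promoter windows were found for 9 of the 10 genes (10 windows, since Fgfr3 has 2), and Fgfr1 was not among them. The windows of Fgf2, Fgf3, Fgf9, Fgf10 and Fgfr2 and 1 window of Fgfr3 lie inside the longer GENCODE M21 genes. Both strands of the 250 bases before each start were searched for GACCACCCA (GLI factors), GGGGCCCC (PLAGL1), CTTTGAA (TCF/LEF factors) and CCGGAAGT (ETS factors). The TCF/LEF letters occurred in 1 of the 10 windows, that of Fgf3, on the minus strand and starting 198 bases before the RefSeq start, and in 4.46% of all 32851 windows. The PLAGL1 letters occurred in 1, that of Fgfr4, and in 0.889% of all windows. The GLI letters (0.225% of all windows) and the ETS letters (2.88%) occurred in 0 of the 10. None of these motifs overlapped in the members' windows. CpG counts in the same 250 bases ran from 2 for Fgfr2 and 4 for Fgf3 to 37 for Fgf18, with a median of 6 over all windows. A match describes the letters in the window and is not evidence of binding.

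Fgf2, the basic FGF stored in extracellular matrix, was the most abundant of the 6 ligands described here. Fgf1, a ligand gene outside them, was higher, with means of 36.4 CPM in controls and 33.2 in mutants. Fgf2 stood at 12.7, 12.7 and 11.2 CPM in control replicates 2, 3 and 5 and at 14.3, 15.3 and 17.1 CPM in mutant replicates 3, 4 and 5. Every mutant library was above every control library. The log2 fold change was 0.35 (SE 0.11, 95% interval 0.09 to 0.61), and the adjusted p was 0.187 (edgeR quasi-likelihood test). On mm10 the gene occupies chromosome 3, 37348346 to 37410108 (plus strand). Its exons share 640 bases, or 9.44% of their length, with those of the antisense gene Nudt6. The control mean of Nudt6 was 1.58 ± 0.200 CPM and its mutant mean 2.09 ± 0.525 (SD, n = 3, edgeR adjusted p = 0.514). The sources used here do not say whether counting used strand, so reads from the shared bases cannot be assigned with certainty.

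Fgf3 is a papilla ligand whose loss in people is known to cause very small teeth. It was counted at 1.80, 1.12 and 1.36 CPM in control replicates 2, 3 and 5, which is 37, 24 and 25 reads. In mutant replicates 3, 4 and 5 it was at 0.502, 0.911 and 1.01 CPM, or 13, 21 and 23 reads. All mutant libraries were below all controls, by a narrow margin between control replicate 3 and mutant replicate 5. The log2 fold change was -0.83 (SE 0.35, 95% interval -1.63 to -0.02), with an adjusted p of 0.315 (edgeR quasi-likelihood test). On mm10 it occupies chromosome 7, 144838083 to 144844436 (plus strand).

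Fgf10 is a mesenchymal ligand that supports dental epithelial stem cells, and it was highest in replicate 5 of each group. It stood at 4.23, 3.42 and 5.88 CPM in control replicates 2, 3 and 5 and at 2.28, 2.47 and 4.52 CPM in mutant replicates 3, 4 and 5. Mutant replicate 5 lay within the control range, while the other mutants lay below it. The log2 fold change was -0.54 (SE 0.32, 95% interval -1.28 to 0.19, adjusted p = 0.484, edgeR quasi-likelihood test). Without mutant replicate 5 the log2 fold change was -0.92 (adjusted p = 0.224), and without control replicate 5 it was -0.30 (adjusted p = 0.784). Fgf10 occupies chromosome 13, 118669791 to 118792115 (mm10, plus strand).

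The remaining ligands had few reads. Fgf9, an epithelial ligand that acts on the mesenchyme, stood at 1.41, 0.702 and 1.14 CPM in control replicates 2, 3 and 5 and at 1.35, 1.30 and 1.14 CPM in mutant replicates 3, 4 and 5. The groups overlapped, with a log2 fold change of 0.22 (95% interval -0.49 to 0.94, adjusted p = 0.796, edgeR). Fgf9 is known as an epithelial gene, and the epithelium markers given above had lower levels in the mutants for most of the list. The part of epithelial content in the Fgf9 values was not tested.

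Fgf7, the keratinocyte growth factor of mesenchyme, had 7, 13 and 3 reads in control replicates 2, 3 and 5 and 19, 16 and 6 in mutant replicates 3, 4 and 5. These overlapping counts gave a log2 fold change of 0.58 with a 95% interval from -0.71 to 1.87 (adjusted p = 0.699, edgeR), an interval that spans changes in either direction and holds both counting error and the spread between libraries. Fgf18, a ligand of bone-forming mesenchyme, had 4, 5 and 3 reads in the controls and 30, 5 and 8 in the mutants. The count of mutant replicate 3 was thus far from all others, and the other mutant libraries (0.217 and 0.351 CPM) lay within or just above the control range of 0.163 to 0.234 CPM. On mm10, Fgf7 runs from 126034658 to 126091185 on chromosome 2, Fgf9 from 58070547 to 58112720 on chromosome 14 and Fgf18 from 33117430 to 33147400 on chromosome 11. With no filter on low counts, Fgf18 had a log2 fold change of 1.54 (SE 0.70, adjusted p = 0.407, edgeR).

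Among the receptors, Fgfr1 was by far the most abundant. It binds many of the FGFs and is the main receptor gene of mesenchyme. Fgfr1 stood at 1118, 1203 and 1284 CPM in control replicates 2, 3 and 5 and at 1152, 952 and 1177 CPM in mutant replicates 3, 4 and 5. The lowest library was mutant replicate 4, and the groups overlapped. The log2 fold change was -0.14 (SE 0.11, 95% interval -0.39 to 0.12, adjusted p = 0.638, edgeR quasi-likelihood test), and it was 0.074 when libraries were scaled to their totals alone. Fgfr1 occupies chromosome 8, 25513654 to 25575718 (mm10, plus strand).

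Fgfr2, whose b form is the epithelial receptor for Fgf10, was at 151, 150 and 132 CPM in control replicates 2, 3 and 5 and at 155, 181 and 141 CPM in mutant replicates 3, 4 and 5. Mutant replicate 4, the lowest for Fgfr1, was the highest for Fgfr2. The log2 fold change was 0.14 (95% interval -0.11 to 0.39, adjusted p = 0.618, edgeR). The Fgfr2 model of GENCODE M21 reaches from 130162451 to 133123350 on chromosome 7 (minus strand) and shares 314 exonic bases with Ctbp2 on the same strand.

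Fgfr3, a receptor known for restraining growth of cartilage, was at 130, 97.4 and 106 CPM in control replicates 2, 3 and 5 and at 101, 91.4 and 125 CPM in mutant replicates 3, 4 and 5. The log2 fold change of -0.07 (95% interval -0.40 to 0.26, adjusted p = 0.875, edgeR) turned to 0.13 with scaling to library totals. Fgfr4 was low, at 2.38, 1.40 and 2.18 CPM in the controls and 2.24, 1.69 and 2.20 CPM in the mutants (log2 fold change 0.04, 95% interval -0.58 to 0.66, adjusted p = 0.962, edgeR). For both genes the mutant and control libraries were interleaved. Fgfr3 spans 33721674 to 33737068 on chromosome 5 of mm10, and Fgfr4 spans 55152640 to 55168759 on chromosome 13. The intervals of Fgfr1, Fgfr2 and Fgfr3 all lay within a log2 fold change of -0.40 to 0.39, while those of the ligands other than Fgf2 were wider.

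**Figure D2:**
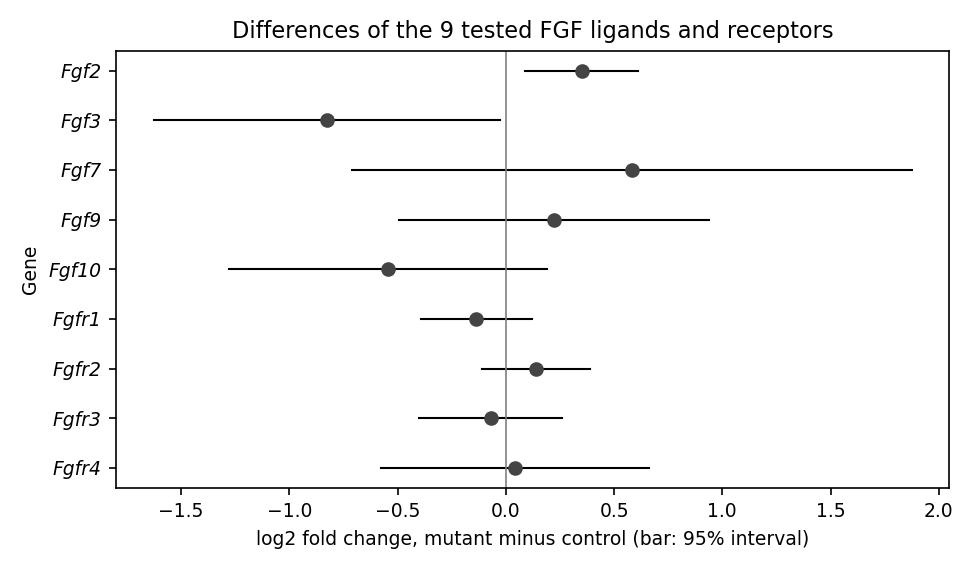
Log2 fold change of mutants against controls for the 9 tested genes, with points for the edgeR estimate and bars for its 95% interval, not adjusted for the number of genes. The intervals of Fgf2 (0.09 to 0.61) and Fgf3 (-1.63 to -0.02) do not reach 0, and those of the low ligands Fgf7 and Fgf9 are wide. Fgfr1 and Fgfr3 change sign with scaling to library totals.

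To compare levels between genes, CPM was divided by the length of each gene's merged exons. In controls the order from highest to lowest was Fgfr1 (122 ± 8.44 CPM per kilobase, SD, n = 3), Fgfr3 (15.5 ± 2.36), Fgfr2 (14.0 ± 1.06), Fgf2 (1.80 ± 0.125), Fgf10 (0.980 ± 0.272), Fgf3 (0.614 ± 0.147), Fgfr4 (0.561 ± 0.146), Fgf9 (0.233 ± 0.0769), Fgf18 (0.166 ± 0.0299) and Fgf7 (0.114 ± 0.0690). Over all 6 libraries, Fgfr1 did not overlap with Fgfr3, Fgfr2 did not overlap with Fgf2, Fgf2 did not overlap with Fgf10, and Fgfr4 did not overlap with Fgf9. The other neighbours in this order overlapped. With the longest transcript in place of the merged exons, Fgfr2 (32.6) came before Fgfr3 (26.2) in the controls. By the mean over all 6 libraries, Fgfr1 stood above 98.8% of the 22285 genes with a length, Fgf2 above 49.7% and Fgf7 above 15.4%.

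Fgfr1 made up 75.8 to 82.2% of the summed receptor level per kilobase in the 6 libraries, with 80.1 ± 2.63% in controls and 78.2 ± 2.07% in mutants (SD, n = 3). Fgfr2 took 8.06 to 13.8%, Fgfr3 9.05 to 12.4%, and Fgfr4 0.264 to 0.459%. Among the 6 ligands described here, which leave out Fgf1, Fgf2 took 41.9 to 51.5% in controls and 48.8 to 58.5% in mutants. The ranges overlapped. Fgf3 took 13.3 to 18.7% in controls and 5.01 to 10.1% in mutants, without overlap. The share of Fgf18 was 22.7% in mutant replicate 3 and 3.48 to 6.48% in the other 5 libraries, which also lowers the shares of the other ligands in that library. Shares of this kind are a description of the libraries and were given no test.

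The summed receptor level was 147 to 158 CPM per kilobase in controls and 127 to 151 in mutants, and that of the ligands was 3.63 to 4.14 and 3.86 to 4.57. These sums cover only the receptors and ligands described here and leave out the ligand gene Fgf1 (control mean 36.4 CPM, mutant mean 33.2). For the genes described here, the ratio of receptors to ligands was 35.5, 41.4 and 40.1 in control replicates 2, 3 and 5 and 34.0, 32.9 and 33.0 in mutant replicates 3, 4 and 5. The mutant ratios lay below the control ratios, but this rested on Fgf18 in mutant replicate 3. Without Fgf18, an alternative chosen after the data were seen, the ratio was 36.9, 43.8 and 41.5 in the controls and 43.9, 34.5 and 35.3 in the mutants, and the groups overlapped. The size of the ratio also depends on the length used. With the longest transcript of each gene it was 62.0 to 72.5 in controls and 57.4 to 59.0 in mutants. These ranges again include Fgf18, and this version was not computed without it.

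**Figure D3:**
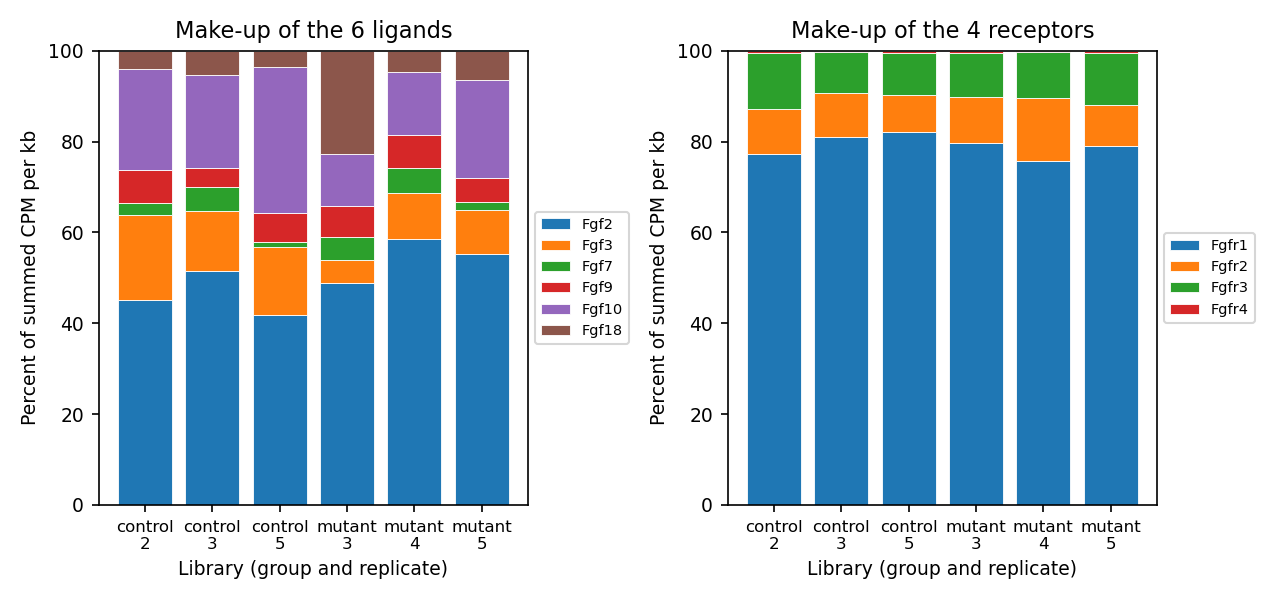
Make-up of the 6 ligands (left) and 4 receptors (right) in each library, as percent of the summed CPM per kilobase of merged exons, with 1 bar per library. Fgfr1 fills 75.8 to 82.2% of the receptor bars, and Fgf18 fills 22.7% of the ligand bar of mutant replicate 3.

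Fgf2 had the smallest p of the 9 tested members, and the 4 genes whose levels followed it most closely over the 6 libraries were Arhgap31, Selenoh, Inpp5d and Gpx7. Likeness was the root mean square difference of centred log2(CPM + 1), which was 0.022 for Arhgap31 and 0.027 for Gpx7 over 10829 candidate genes with at least 5 CPM. Their log2 fold changes were 0.31 for Gpx7 to 0.40 for Inpp5d, and none of the 4 passed the test (adjusted p 0.0952 to 0.142, edgeR). Since the 4 were picked for likeness in these same 6 libraries, fold changes near that of Fgf2 follow from the choice.

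Beyond these members, 55 other genes of the FGF pathway were tested, and 1 fell and 0 rose (edgeR, adjusted p under 0.05). Of all genes tested, 1.20% fell and 0.659% rose. At an unadjusted p under 0.05 there were 12, against 15.0% of all genes. The median log2 fold change of the 55 was 0.03.

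The faller was Dusp4, a phosphatase that inactivates ERK and is induced by it. It was at 8.66, 7.54 and 13.4 CPM in control replicates 2, 3 and 5 and at 3.52, 2.99 and 3.73 CPM in mutant replicates 3, 4 and 5. Every mutant library was below every control library (log2 fold change -1.53, SE 0.23, adjusted p = 0.0276, edgeR). The call was lost whichever library was left out, with an adjusted p of 0.0529 to 0.101 and log2 fold changes of -1.68 to -1.24. Of the 12 response and feedback genes, which include the Sprouty, Spred and Etv genes, 11 did not pass, 7 had positive and 5 negative fold changes, and the median was 0.06. The groups did not overlap for 3 of the 12, against 21.3% of all genes tested. The 3 were Dusp4, Il17rd, an inhibitor of FGF signalling (log2 fold change -0.65, adjusted p = 0.0874, edgeR), and Spry4, a Sprouty inhibitor with higher mutant values (0.39, adjusted p = 0.230). Il17rd and Spry4 were named after their values were seen.

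Of the 8 tested genes in the list of other FGF family genes, 0 passed. Fgf12 and Fgf14 had the smallest p, and both encode intracellular FGF homologous factors, which bind sodium channels of neurons and are not secreted ligands. Fgf12 was at 4.91, 4.82 and 4.46 CPM in controls and at 6.84, 7.63 and 7.07 CPM in mutant replicates 3, 4 and 5 (log2 fold change 0.60, adjusted p = 0.0713, edgeR). Fgf14 was at 1.15, 1.08 and 0.871 CPM in controls and at 2.01, 3.15 and 2.30 CPM in mutant replicates 3, 4 and 5 (log2 fold change 1.25, edgeR adjusted p = 0.0713). The mutant libraries were above the controls for both and for Fgf13, which made 3 of the 8 tested genes, against 10.6% of all genes. Fgf11 and Fgf13 are homologous factors of the same kind and were more abundant. Fgf13 had a log2 fold change of 0.21 (edgeR adjusted p = 0.335). Fgf11 had one of 0.04 (edgeR adjusted p = 0.922), and its groups overlapped. Schwann cell markers, which stand for nerve tissue, had a summed level of 21.0 to 25.5 CPM in controls and 26.4 to 34.5 CPM in mutants over 5 genes, with 5 of 5 fold changes positive and none at 0 reads in a library. Their part in the Fgf12 and Fgf14 values was not tested.

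Of the 20 genes from the receptor to ERK, 0 passed. Fold changes were negative for 14 and positive for 6 (median -0.06), where 52.0% of all genes had a positive one. Hras, a Ras GTPase gene, was at 91.3 ± 7.22 CPM in controls and 59.3 ± 9.74 in mutants (SD, n = 3, log2 fold change -0.62, adjusted p = 0.0573, edgeR). Plcg1, the phospholipase recruited by activated FGF receptors, was at 133 ± 13.8 and 101 ± 2.85 CPM (log2 fold change -0.40, adjusted p = 0.0730). Neither gene's libraries overlapped between the groups. Of the 20, 4 had every mutant below every control and 1 had every mutant above, against 10.8% and 10.6% of all genes. With each library left out in turn, Hras passed in 1 of 6 fits (without mutant replicate 3, adjusted p = 0.0435), and the adjusted p ranged up to 0.186.

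Of the 15 tested genes for co-receptors, FGF-binding proteins and heparan sulfate synthesis, 0 passed, with a median log2 fold change of 0.03. The smallest p values belonged to Hs6st2, a heparan sulfate sulfotransferase (control mean 10.8 ± 1.07 CPM, mutant mean 14.1 ± 0.578, adjusted p = 0.145), and Flrt3, a membrane protein that binds FGF receptors (control mean 56.3 ± 10.9 CPM, mutant mean 73.9 ± 13.1, adjusted p = 0.333, edgeR, SD, n = 3). Of the 67 pathway genes listed, 6 had counts too low to be tested and 6 were absent from the deposited counts.

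**Figure D4:**
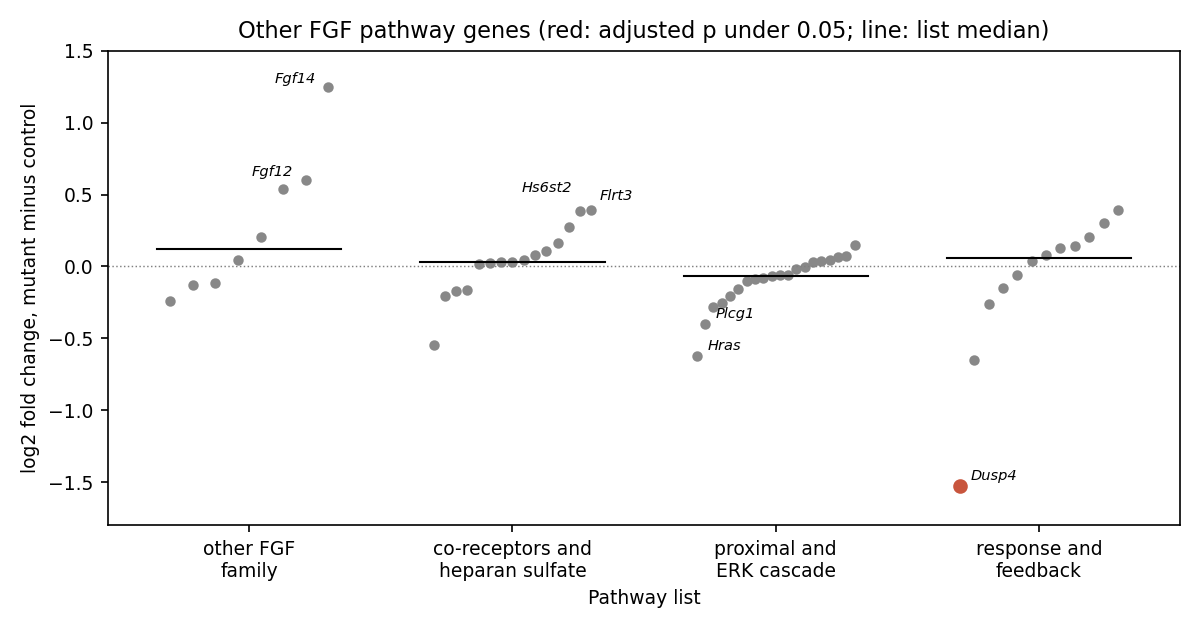
Log2 fold change of mutants against controls for 55 tested FGF pathway genes in 4 lists, with 1 point per gene, red where the adjusted p was under 0.05, and a line at each list's median. Dusp4 (-1.53) is the gene in red, and the medians lie between -0.06 and 0.12.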

How the data were processed

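Single-end RNA sequencing of 6 molar libraries was deposited as 2 tables. The submitters' processing notes name STAR 2.6.1d, Partek and mm10. Their roles, the annotation and the strand setting are not given in the sources used. The authors deposited expected counts per gene and a second table of normalized signal. Per the file name, the counts are estimated read counts from Partek's expectation-maximisation step. The signal was taken to be the expected count plus 1, times 1 factor per library (75th percentile 39.2 in control replicate 2). Groups came from the genotype labels and replicate numbers from the titles.

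Expected counts were rounded to whole numbers and kept by filterByExpr, scaled by TMM and tested over 17305 genes with edgeR 4.0.16 (quasi-likelihood F test, Benjamini-Hochberg adjustment, R 4.3.3). The common biological coefficient of variation was 0.161. SE is the absolute log2 fold change over the square root of F, and 95% intervals use the test's degrees of freedom. Gene ends, exon lengths and overlaps came from GENCODE M21, matched by name, chromosome and start for 22285 of 22287 genes. DESeq2 1.42.0, limma 3.58.1 and the other alternatives are given in the closing section, and the scripts were tested on simulated data. The genes described and all lists were chosen with earlier results of these data known. All 10 ligands and receptors were named, with each called gene of a pathway list or, where there was none, the 2 with the smallest p. The genes most like a member were the 4 nearest to the member with the smallest p, passing over unnamed models and sex-linked genes.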

Additional observations from a re-analysis of the deposited data

How the results depend on the processing

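No FGF ligand or receptor with an adjusted p was called under any of the 17 alternatives, which were other scalings, filters and tests, the normalized table, a replicate block, a threshold of 0.10 and each library left out. Fgf18 had an adjusted p with no filter and in the normalized table only, and Fgf7 had none with DESeq2 or the CPM filter. Of 143 fold changes of the 9 tested members under 16 alternatives, 134 kept their sign. Scaling to library totals moved the median of all genes from 0.01 to 0.21 and turned Fgfr1 to 0.074 and Fgfr3 to 0.13. Fgfr3 was 0.15 with the replicate block. With 1 library left out, reversals occurred for Fgfr3 (-0.20 to 0.064), Fgfr4 (-0.15 to 0.20) and Fgf9 (-0.0099 to 0.47). The adjusted p of Fgf2 ranged from 0.0709 to 0.554 and that of Fgf3 from 0.273 to 0.671.

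Of the other pathway genes, 4 were called with library totals (Dusp4, Dusp6, Fgf12 and Fgf14), 6 each with DESeq2, with edgeR's likelihood ratio test and at a threshold of 0.10 (Dusp4, Fgf12, Fgf14, Hras, Il17rd and Plcg1), 2 with limma on the normalized table (Dusp4 and Hras), 0 with the replicate block, and 0 to 1 with 1 library left out. Over all genes, 322 were called, against 520 with library totals (411 higher and 109 lower, against 114 and 208), 853 with DESeq2, 819 with the likelihood ratio test, 672 at a threshold of 0.10, 90 with the replicate block and 11 to 243 with 1 library left out. Fits without a library have fewer samples, and for the other changes the cause was not tested. Numbers 3 and 5 occur in both groups. The deviations of same-numbered libraries correlated at 0.27 and -0.14, so the numbers were not taken as pairs. Arid1a had an adjusted p of 0.0769 with the replicate block. Per-length levels with the longest transcript moved beyond 1 SD for Fgfr1 (238), Fgfr2, Fgfr3 and Fgf2 (2.04). For Fgf7 and Fgf18 depth is low, since 3 counts correspond to 0.116 to 0.163 CPM.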

Other observations

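Among the FGF pathway genes too low to be tested, Kl, which encodes the co-receptor klotho, had 1, 4 and 2 reads in control replicates 2, 3 and 5 and 15, 9 and 14 in mutant replicates 3, 4 and 5. It was chosen after its values were seen. Every mutant library was above every control library, and with no filter on low counts the log2 fold change was 2.14 (SE 0.56, adjusted p = 0.129, edgeR). Fgfbp1, a secreted carrier of FGFs and an epithelial gene, had 25 reads in control replicate 5, 0 in the other 2 controls and 1, 1 and 4 in the mutants.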
